A study of Homo sapiens with 28 samples.

Results

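The genes through which the ligands TRAIL and FASLG start apoptosis from the cell surface were measured in 2 human mantle cell lymphoma lines treated with ONC201, tunicamycin or rapamycin. The members were chosen by gene symbol alone: the receptors TNFRSF10A, TNFRSF10B and FAS, the ligand TNFSF10, the adaptor FADD, the initiator caspases CASP8 and CASP10, their inhibitor CFLAR, and BID. Of these 9 genes, 7 had a probe in the platform annotation used, with 14 of the 47231 probes on the array between them, among 18811 named genes in all. FADD and CFLAR were not analysed here.

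Human HT-12 bead arrays, which read each transcript by hybridisation to beads that carry a short probe, gave 28 RNA profiles in 12 groups from 3 experiments. In the first experiment JeKo-1 cells, a mantle cell lymphoma line, were collected after 0, 12, 24 or 36 h with ONC201, from 3 wells at each time, and the dose is not given in the sources used here. In the second, Z138 cells, also a mantle cell lymphoma line, were either parental (not exposed to ONC201 before) or ONC201-resistant, and each kind was sampled, in 2 wells per group, without treatment or after 24 h in 5 µM ONC201. In the third experiment JeKo-1 wells were kept untreated until a harvest at 24 h, given 1 µM tunicamycin for 12 or 24 h, or given 10 nM rapamycin for 24 h, again in 2 wells per group. Untreated wells received the solvent DMSO. Wells of an experiment were filled from 1 stock culture of each line, so p-values reflect how far such wells differed, a spread that can be technical, and 1 stock stands for the resistant cells. ONC201 is a small molecule known to activate the mitochondrial protease ClpP and the integrated stress response, tunicamycin blocks N-linked glycosylation and so causes endoplasmic reticulum stress, and rapamycin inhibits the kinase mTORC1.

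TRAIL, the product of TNFSF10, binds the receptors DR4 (TNFRSF10A) and DR5 (TNFRSF10B), and FASLG binds FAS. A bound receptor gathers the adaptor FADD, which brings CASP8 and CASP10 together so that they activate each other, while CFLAR takes their place in the complex and holds activation back. Active CASP8 cleaves effector caspases directly and also cleaves BID, whose fragment moves to mitochondria and helps BAX and BAK open the outer membrane. Transcription of TNFRSF10B is known to be raised by the stress factor CHOP (DDIT3), and TNFRSF10B and FAS are both known p53 targets.

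Signals below are on a log2 scale after background correction and quantile normalisation, with 16 added before the logarithm, so differences of dim probes are understated. A probe counted as detected on an array where its detection p-value was under 0.01, and a difference was called where limma's adjusted p, computed over all probes tested in the same comparison, was under 0.05. Differences are given with their standard error (± SE). Probes of different genes were not set against each other.

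Detection separated the members. TNFRSF10A (ILMN_1721316), TNFRSF10B (ILMN_1699265) and 2 BID probes (ILMN_1763386 and ILMN_2372413) were detected on all 28 arrays. TNFSF10 (ILMN_1801307) was detected on 11 arrays: all 8 of the tunicamycin and rapamycin experiment, 3 of 12 in the ONC201 time course and 0 of 8 in Z138. FAS (ILMN_1808132) was detected on 2 arrays, both of parental Z138 with ONC201. A second TNFRSF10B probe, ILMN_1812915, was detected on 1 array, also of parental Z138 with ONC201, and another BID probe, ILMN_2259495, on 7 arrays of 5 groups in all 3 experiments. Of 4 CASP8 probes 1 was detected on 1 array, at 0 h, and the other three on none, and neither of the 2 CASP10 probes was detected on any array. Signals of the CASP8 probes lay between 4.25 and 5.55 and those of the CASP10 probes between 4.29 and 5.21. The 1 detected CASP8 array had the 5.55. Only 4 members could therefore be tested in each experiment and 5 in any, and levels of the initiator caspases were not measurable with these probes.

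**Figure D1:**
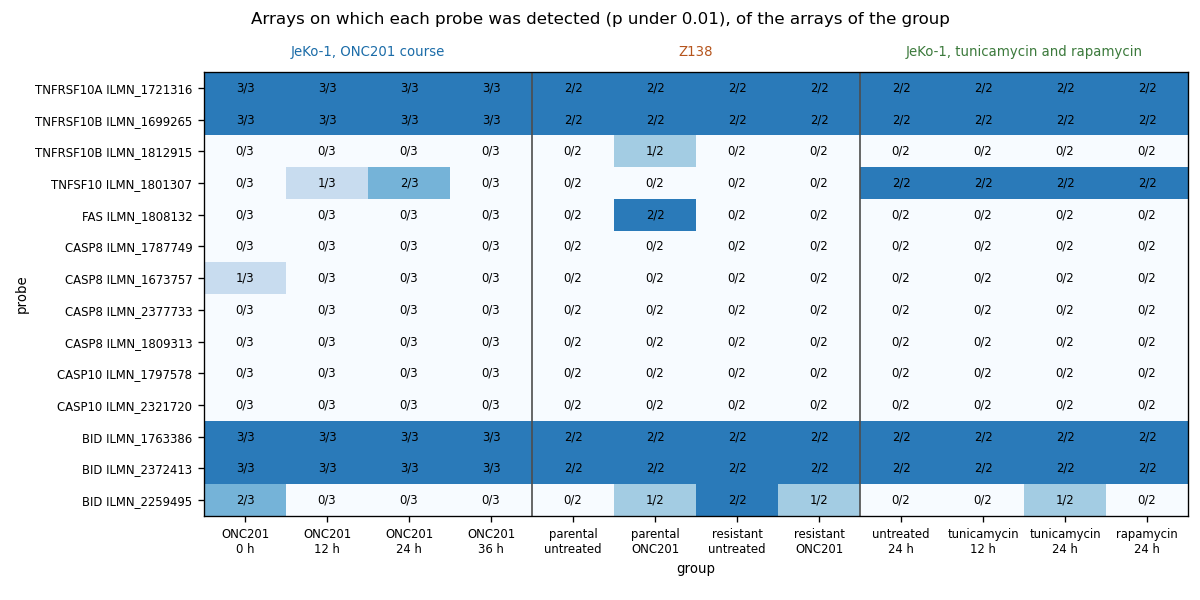
Number of arrays with a detection p-value under 0.01 for each of the 14 member probes (vertical axis) in each of the 12 groups (horizontal axis). TNFRSF10A, the main TNFRSF10B probe and 2 BID probes are detected on all 28 arrays, TNFSF10 on 11 and FAS on 2.

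The sequences just upstream of the 3 members with called changes that may be printed are shown because the changes concern their RNA levels. RefSeq windows of 250 bases that end at the base before the annotated start (GRCh38.p14, each on the strand of its gene) were available for 6 of the 9 genes. Those of TNFSF10, FAS and BID were searched on both strands for 3 cores. The cores were GAAA, any 2 bases and GAAA again for the interferon response element, TGTTTAC of forkhead factors, and TGATGNAA of ATF and C/EBP pairs. The TNFSF10 window, at chr3:172523431-172523680 on the minus strand, held 1 match, shown in capitals, which begins 187 bases before the start and has the GAAA runs on the other strand. The FAS window, at chr10:88990548-88990797 on the plus strand, and the BID window, at chr22:17774666-17774915 on the minus strand, held none of the 3. The table held 3 windows for FAS and 5 for BID, for other annotated starts, and the one farthest upstream is shown; the others held no match either.
TNFSF10: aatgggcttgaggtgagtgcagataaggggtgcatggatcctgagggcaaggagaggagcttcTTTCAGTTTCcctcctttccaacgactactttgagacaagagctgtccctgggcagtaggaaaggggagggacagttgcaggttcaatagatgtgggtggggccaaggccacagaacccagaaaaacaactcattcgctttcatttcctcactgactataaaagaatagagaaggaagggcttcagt
FAS: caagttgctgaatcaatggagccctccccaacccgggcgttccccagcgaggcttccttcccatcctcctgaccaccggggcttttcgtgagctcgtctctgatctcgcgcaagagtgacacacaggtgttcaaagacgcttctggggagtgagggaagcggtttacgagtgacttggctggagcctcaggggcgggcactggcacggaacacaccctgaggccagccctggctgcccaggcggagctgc
BID: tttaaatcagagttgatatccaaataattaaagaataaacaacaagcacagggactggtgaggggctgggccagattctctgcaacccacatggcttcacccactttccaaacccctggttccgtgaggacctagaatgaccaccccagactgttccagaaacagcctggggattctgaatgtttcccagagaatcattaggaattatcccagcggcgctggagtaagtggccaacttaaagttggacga
Of 35116 such windows of all genes 3.02% held the interferon response core, 2.98% held TGTTTAC and 3.14% held TGATGNAA. A match is a run of letters and not a measured binding site, and no binding was measured here.

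TNFRSF10B, the DR5 receptor, had the largest differences of the members detected on all arrays. It rose to 2.31-fold over 36 h of ONC201 in JeKo-1, to 1.99-fold after 24 h of ONC201 in parental Z138 and to 1.94-fold after 24 h of tunicamycin in JeKo-1, and it did not pass the test in resistant Z138. In the time course its signals were 8.45, 8.49 and 8.45 at 0 h, then 8.79, 8.70 and 8.46 at 12 h, 9.06, 9.34 and 9.24 at 24 h, and 9.67, 9.70 and 9.66 at 36 h. The 12 h arrays ran from the 0 h level upward, and the arrays of 24 h and of 36 h lay wholly above those of every earlier time. The difference from 0 h was 0.18 ± 0.09 at 12 h (limma, adjusted p = 0.339), 0.75 ± 0.09 at 24 h (adjusted p = 0.000134) and 1.21 ± 0.09 at 36 h (adjusted p = 1.44e-06). It also rose from 12 h to 24 h by 0.57 ± 0.09 (limma, adjusted p = 0.00224) and from 24 h to 36 h by 0.46 ± 0.09 (adjusted p = 0.00939), comparisons that share arrays with the others. At 36 h 284 of the 15534 probes tested had a higher difference. All times were set against 0 h, so time in culture and time with ONC201 cannot be told apart, and in bulk RNA neither can fewer cells of a kind and less RNA per cell.

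In Z138 the TNFRSF10B response was present in parental cells and was not detected in resistant ones. Parental signals were 8.68 and 8.79 untreated and 9.75 and 9.70 with ONC201. Resistant signals were 8.82 and 8.91 untreated and 8.84 and 8.88 with ONC201. The parental groups were far apart, whereas the treated resistant arrays lay between the untreated ones. The ONC201 difference was 0.99 ± 0.10 in parental cells (limma, adjusted p = 0.000234) and -0.01 ± 0.10 in resistant cells (adjusted p = 0.975; 95% interval -0.23 to 0.21). The difference between these effects, resistant minus parental, was -1.001 ± 0.14 (limma, adjusted p = 0.00276; 95% interval -1.32 to -0.69). Untreated resistant and parental cells differed by 0.13 ± 0.10, which was not called (limma, adjusted p = 0.569).

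Tunicamycin and rapamycin moved TNFRSF10B apart. Its signals were 8.42 and 8.58 in untreated JeKo-1, 9.37 and 9.05 after 12 h of tunicamycin, 9.51 and 9.40 after 24 h of tunicamycin, and 8.01 and 8.11 after rapamycin. Every tunicamycin array lay above, and every rapamycin array below, the untreated arrays. Against the untreated wells the difference was 0.71 ± 0.13 at 12 h of tunicamycin (limma, adjusted p = 0.0103), 0.95 ± 0.13 at 24 h (adjusted p = 0.00205) and -0.44 ± 0.13 with rapamycin (adjusted p = 0.0534). Tunicamycin for 24 h exceeded rapamycin by 1.39 ± 0.13, a 2.62-fold difference (limma, adjusted p = 0.000307), and 24 h of tunicamycin exceeded 12 h by 0.24 ± 0.13, which was not called (adjusted p = 0.395). These comparisons share their untreated wells, and the 12 h tunicamycin wells were set against wells harvested at 24 h. The 12 h call was lost without untreated replicate 1 (0.63, adjusted p = 0.0634) or without 12 h tunicamycin replicate 1 (0.55, adjusted p = 0.0544), and the rapamycin difference was called under 5 of 9 other settings (adjusted p 0.00655 to 0.0430).

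Responses were also compared across experiments, each within its own controls. The 24 h response of JeKo-1 to ONC201 was 0.20 ± 0.16 smaller than that to tunicamycin (-0.20, limma, adjusted p = 0.382; 95% interval -0.53 to 0.13). It was also 0.24 ± 0.14 smaller than the response of parental Z138 to ONC201 (-0.24, limma, adjusted p = 0.247; 95% interval -0.54 to 0.05). Neither comparison passed the test, and the intervals leave room for differences of more than 0.5 on the log2 scale. Over the 12 groups, mean TNFRSF10B signals were highest in parental Z138 with ONC201 and in JeKo-1 at 36 h and lowest with rapamycin. Experiment and chip were the same division, so levels across experiments carry any difference between chips.

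**Figure D2:**
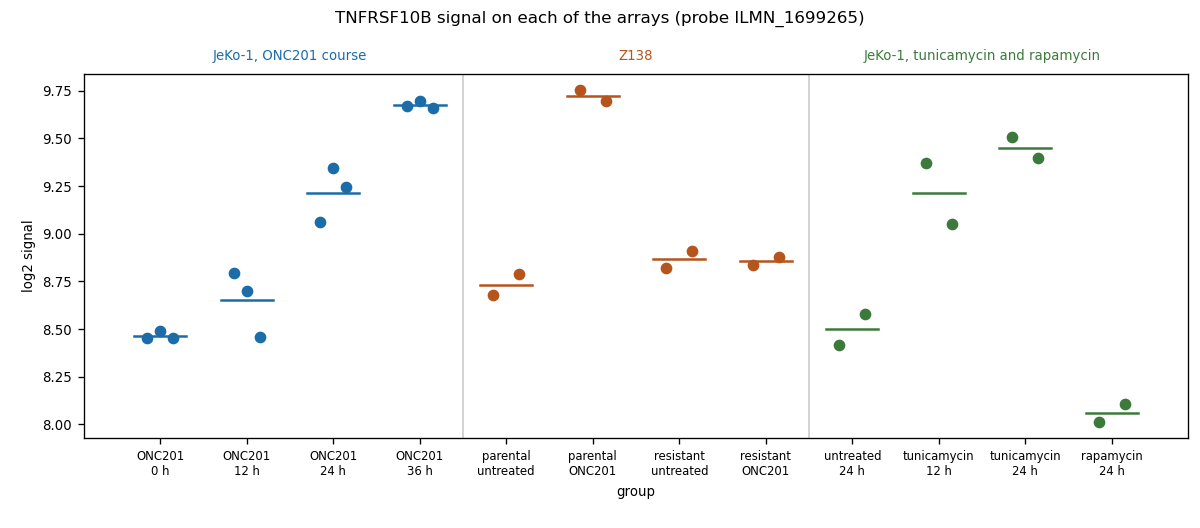
TNFRSF10B signal (log2, probe ILMN_1699265) on each of the 28 arrays, by group and experiment, with group means as lines. The 36 h ONC201 arrays sit between 9.66 and 9.70 against 8.45 to 8.49 at 0 h, the treated resistant Z138 arrays sit among their controls, and the rapamycin arrays are the lowest at 8.01 and 8.11.

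The stress response genes ATF3, ATF4, DDIT3, TRIB3 and ERN1 were followed as a list beside TNFRSF10B. In JeKo-1 with ONC201, 3 of 4 tested rose at 12 h and 4 of 4 at 24 h and at 36 h. Median differences were 1.02, 2.06 and 2.58 against 0.00, 0.00 and -0.01 over all probes. Of all probes 1.35%, 16.2% and 23% were called higher at these times. In parental Z138 5 of 5 rose (median 1.25), beside 17.8% of all probes. In resistant Z138 none of 5 was called (median 0.15), beside 0.0289% of probes higher and 0.0578% lower. Of the 5, 4 differed between the effects, all lower in resistant cells, beside 11.8% of probes. ATF4 did not pass that test, with -0.31 ± 0.15 (limma, adjusted p = 0.154). ERN1, counted among the 5 risers and these 4, was detected on 2 of 2 treated parental arrays. In each other Z138 group it was detected on 0 of 2, so it was tested only through the group where it was high. Tunicamycin for 24 h raised 4 of 4, beside 12.5% of all probes higher. With rapamycin 4 of 4 fell, beside 10% of all probes lower. DDIT3, which encodes CHOP, rose by 0.80 ± 0.08 at 12 h (limma, adjusted p = 0.000521), 2.18 ± 0.08 at 24 h and 2.62 ± 0.08 at 36 h of ONC201, by 2.62 ± 0.11 in parental Z138 and by 2.30 ± 0.14 with tunicamycin for 24 h. With rapamycin DDIT3 fell by 1.31 on the log2 scale (SE 0.14, adjusted p = 0.00153), and its resistant minus parental difference was -2.29 ± 0.16 (adjusted p = 0.00021). TRIB3, a pseudokinase that CHOP induces, rose by 3.98 ± 0.08 at 36 h of ONC201 and fell by 1.72 (SE 0.09) with rapamycin (adjusted p = 0.000132). ATF4, the central factor of the integrated stress response, rose by 0.52 ± 0.07 at 24 h and 0.67 ± 0.07 at 36 h of ONC201 and by 0.47 ± 0.10 in parental Z138 (limma, adjusted p = 0.000185, 1.09e-05 and 0.009). At 12 h of ONC201 DDIT3 and TRIB3 had passed the test and TNFRSF10B had not. ATF4 had not passed it either, with 0.09 ± 0.07 (limma, adjusted p = 0.563). The genes were not tested against each other, and an order among them was not tested.

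**Figure D3:**
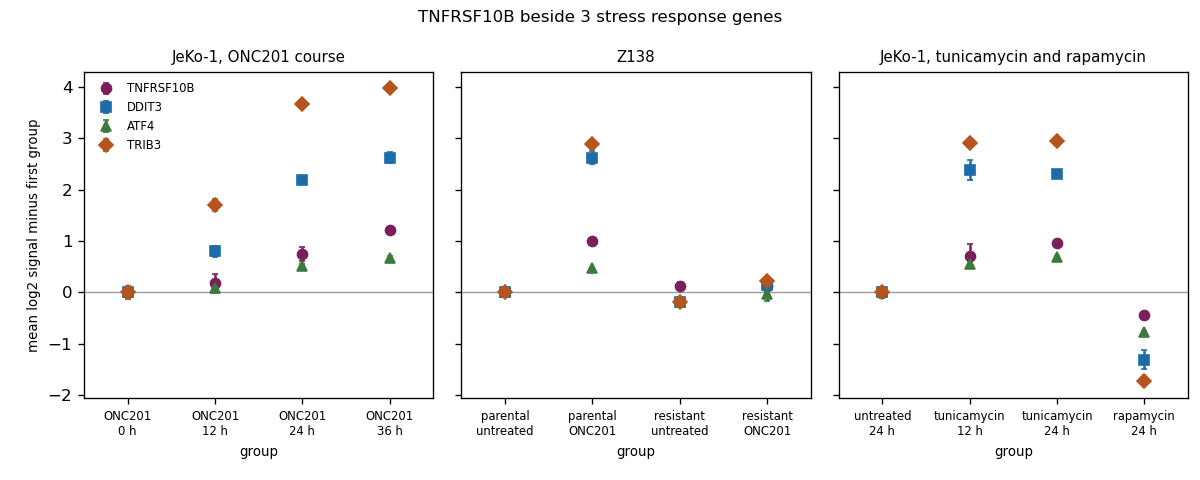
Group means of TNFRSF10B, DDIT3, ATF4 and TRIB3 as differences (log2) from the first group of each experiment, with the SD of the group as error bars. DDIT3 and TRIB3 are above 0 with ONC201 in JeKo-1 and parental Z138 and with tunicamycin, and below 0 with rapamycin, as TNFRSF10B is on a smaller scale.

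Among 8157 genes detected on all arrays, 3 were chosen as those whose signals, centred within each experiment, lay closest to TNFRSF10B over the 28 arrays. POLR3C had a root mean square difference of 0.134 from it, SNHG7 0.155 and ZFAND3 0.156, beside a median of 0.522 over all genes compared. POLR3C, a subunit of RNA polymerase III, differed by 0.94 ± 0.06 at 36 h of ONC201, by 1.01 ± 0.09 in parental Z138 and by 0.93 ± 0.10 after 24 h of tunicamycin. With ONC201 in resistant Z138 it differed by 0.04 ± 0.09. As these genes were picked for likeness, their values are a description.

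TNFRSF10A, the DR4 receptor for the same ligand, did not follow TNFRSF10B. In the time course its signals were 6.27, 6.46 and 6.04 at 0 h, 6.43, 6.62 and 6.21 at 12 h, 5.96, 6.26 and 5.62 at 24 h, and 5.71, 6.14 and 5.63 at 36 h. Each of these groups overlapped the next, with the same order of replicates in every group. Its difference from 0 h was 0.16 ± 0.18 at 12 h, -0.31 ± 0.18 at 24 h and -0.43 ± 0.18 at 36 h (limma, adjusted p = 0.0755), and none was called. The 36 h difference was called without 36 h replicate 2 (-0.59, adjusted p = 0.0268) and in a fit over all 28 arrays (adjusted p = 0.0471). From 12 h to 24 h it differed by -0.47 ± 0.18, also not called (limma, adjusted p = 0.104). With replicate number as a block TNFRSF10A was called at 24 h, at 36 h and from 12 h to 24 h, as given among the alternatives below. In Z138 its signals were 7.59 and 7.81 in untreated and 7.17 and 7.32 in treated parental cells, and 8.003 and 7.87 in untreated and 7.77 and 7.75 in treated resistant cells. Treated wells lay below untreated wells in both kinds of cell. The fall in parental cells was -0.46 ± 0.12 (limma, adjusted p = 0.0163), that in resistant cells -0.17 ± 0.12 was not called (adjusted p = 0.486), and the difference between them, 0.28 ± 0.16, was not called either (adjusted p = 0.249). The parental call was lost without untreated parental replicate 2 (-0.35, adjusted p = 0.0926) or treated parental replicate 1 (-0.38, adjusted p = 0.0977), and in the fit over 28 arrays (adjusted p = 0.0986).

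In the third experiment TNFRSF10A signals were 5.58 and 5.90 untreated, 5.90 and 6.10 at 12 h and 6.19 and 5.56 at 24 h of tunicamycin, and 5.65 and 5.78 with rapamycin. The 12 h tunicamycin wells lay at or above the untreated wells, the other groups overlapped them, and none of the differences was called. The 8 Z138 arrays lay between 7.17 and 8.003 and the 20 JeKo-1 arrays between 5.56 and 6.62, without overlap, on different chips.

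TNFSF10, which encodes TRAIL, was near the detection limit in the time course. Its signals were 4.82, 4.96 and 5.07 at 0 h, 5.02, 5.48 and 5.28 at 12 h, 5.73, 5.44 and 5.63 at 24 h, and 5.33, 5.41 and 5.13 at 36 h. All 24 h arrays lay above all 0 h arrays. It was detected on 2 of 3 arrays at 24 h, 1 of 3 at 12 h, 0 of 3 at 0 h and 0 of 3 at 36 h. It passed the detection filter only through 12 h and 24 h arrays. The 24 h rise was called (limma, adjusted p = 0.00247), and with 0 h only bounded it was at least 1.07-fold, the mean of the 24 h arrays over the lowest signal of any detected probe on each 0 h array. With the authors' normalized values the 24 h difference was 0.37 and not called (adjusted p = 0.0641). At 36 h the test also passed (adjusted p = 0.0454), with both groups undetected, so no fold is given. That call was lost without 0 h replicate 1 (0.27, adjusted p = 0.145) or 2 (0.34, adjusted p = 0.0829) or 36 h replicate 1 (0.32, adjusted p = 0.109) or 2 (0.28, adjusted p = 0.146), and under 5 of 9 other settings, with -0.00104 in place of 0.34 for the authors' normalized values.

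In the third experiment, where TNFSF10 was detected on every array, signals were 5.94 and 5.99 untreated, 6.01 and 6.37 at 12 h and 6.16 and 6.22 at 24 h of tunicamycin, and 6.09 and 5.98 with rapamycin. The 24 h tunicamycin arrays lay above the untreated ones, yet the difference of 0.23 ± 0.13 was not called (limma, adjusted p = 0.238), nor was any other in this experiment. With the authors' normalized values it was 0.36 and called (adjusted p = 0.0309). In Z138 its signals lay between 4.36 and 4.75 in all 4 groups, with no array detected.

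FAS, the second receptor able to start the cascade, was detected only in parental Z138 with ONC201. Its signals were 4.97 and 4.64 in untreated and 5.68 and 5.45 in treated parental cells, against 4.84 and 4.86 in untreated and 4.89 and 4.68 in treated resistant cells. The treated parental wells stood above all 6 others of the experiment. FAS passed the detection filter only through these wells, so a difference from the other groups was built into its being tested. The parental difference was called (limma, adjusted p = 0.00441, and 0.0131 over all probes without the filter) and was at least 1.16-fold, with the untreated wells only bounded. Its measured difference of 0.76 was 0.39 with a larger offset and 0.42 without background correction or with the authors' normalized values, and it was called in each. The resistant minus parental difference was -0.82 ± 0.20 (limma, adjusted p = 0.0228), with 3 of its 4 groups undetected, and without the detection filter it was not called (adjusted p = 0.0594). The call was also lost with the authors' normalized values (-0.42, adjusted p = 0.0683) and without untreated parental replicate 2 (-0.66, adjusted p = 0.0573), treated parental replicate 1 (-0.71, adjusted p = 0.0769), untreated resistant replicate 1 (-0.84, adjusted p = 0.0605), untreated resistant replicate 2 (-0.81, adjusted p = 0.0673) or treated resistant replicate 2 (-0.72, adjusted p = 0.0721). On the JeKo-1 arrays FAS signals lay between 4.31 and 4.70, with none detected.

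**Figure D4:**
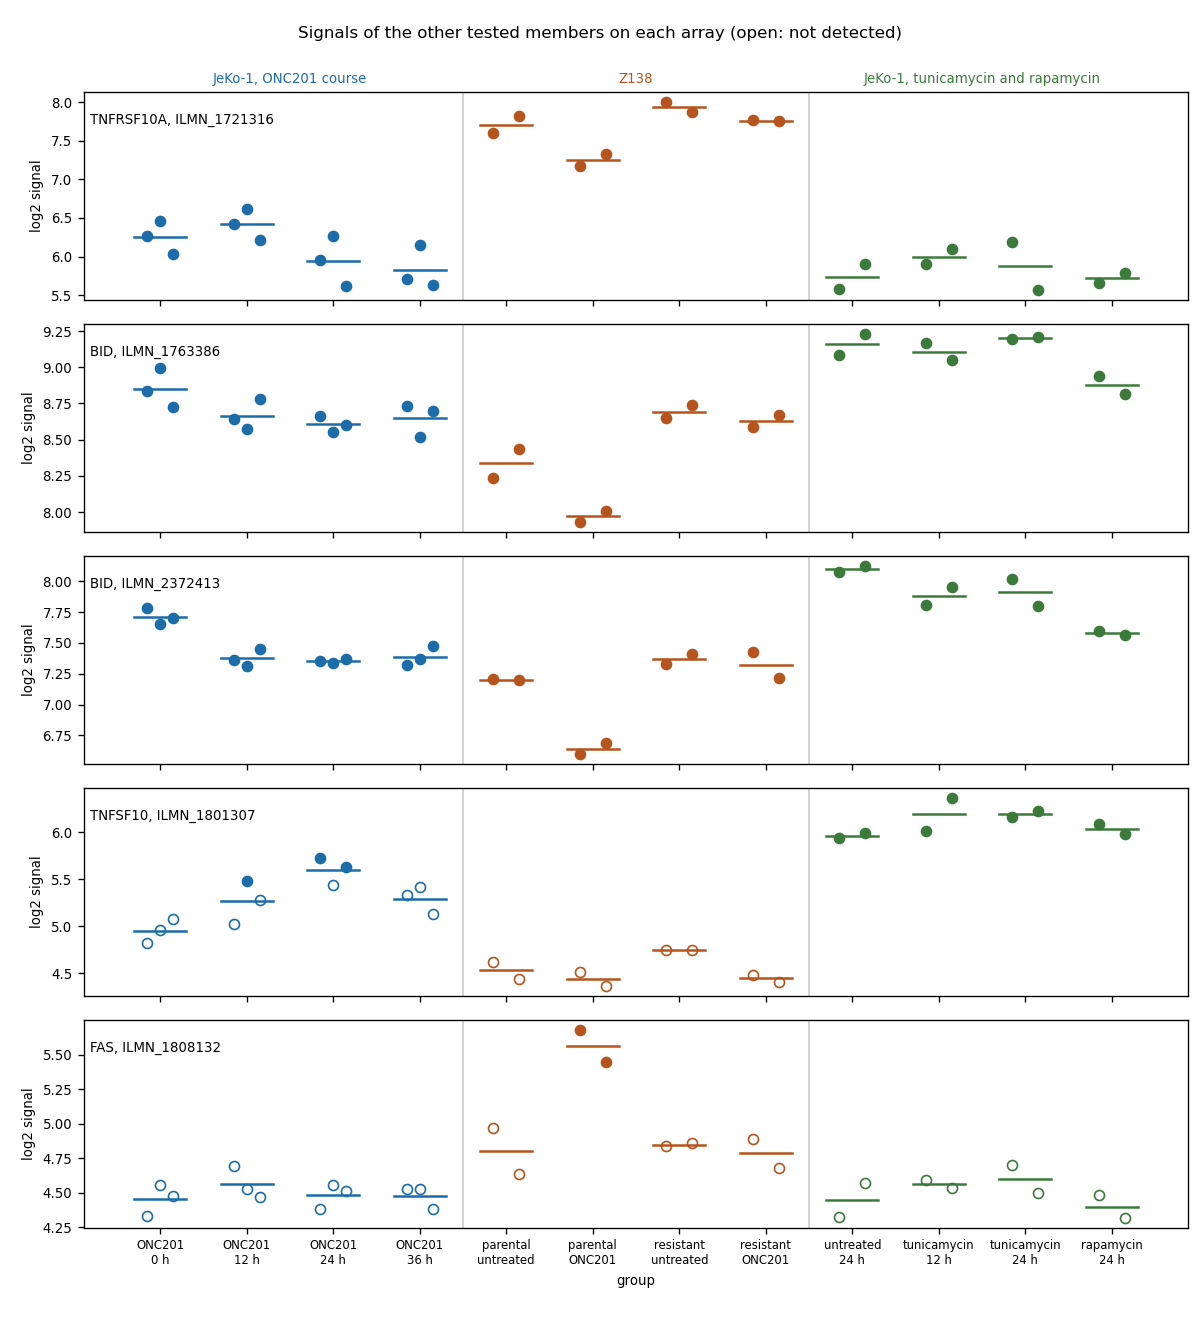
Signals (log2) of TNFRSF10A, TNFSF10, FAS and both BID probes detected throughout on each array, by group and experiment, with open points where the probe was not detected. FAS has filled points only in parental Z138 with ONC201, at 5.68 and 5.45, and TNFSF10 is filled on all 8 arrays of the third experiment.

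BID, the substrate that links CASP8 to mitochondria, was read by 2 probes detected everywhere, and the dimmer of them gave more calls. ILMN_2372413 had signals of 7.78, 7.65 and 7.70 at 0 h, 7.36, 7.31 and 7.45 at 12 h, 7.35, 7.34 and 7.37 at 24 h, and 7.32, 7.37 and 7.47 at 36 h. All 9 treated arrays lay below all 0 h arrays, with no order among the 3 treated times. The differences from 0 h were -0.34 ± 0.07 at 12 h (limma, adjusted p = 0.0279), -0.36 ± 0.07 at 24 h (adjusted p = 0.00241) and -0.32 ± 0.07 at 36 h (adjusted p = 0.0024). The 12 h call was lost without 0 h replicate 1 (-0.30, adjusted p = 0.0901), 0 h replicate 3 (-0.34, adjusted p = 0.0668), 12 h replicate 1 (-0.33, adjusted p = 0.0988), 12 h replicate 2 (-0.30, adjusted p = 0.0994) or 12 h replicate 3 (-0.37, adjusted p = 0.0524). The brighter probe, ILMN_1763386, had signals of 8.84, 8.995 and 8.72 at 0 h, 8.64, 8.57 and 8.78 at 12 h, 8.67, 8.55 and 8.60 at 24 h, and 8.73, 8.52 and 8.70 at 36 h. Its differences of -0.19, -0.25 and -0.20 pointed the same way and were not called (limma, adjusted p = 0.323, 0.0583 and 0.0913). At 24 h this probe was called under 5 of 9 other settings (adjusted p 0.0250 to 0.0462), and without 0 h replicate 3 it was called at 24 h (-0.31, adjusted p = 0.0336) and at 36 h (-0.27, adjusted p = 0.0453). Both probes were lower at every treated time.

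In Z138, ILMN_2372413 gave 7.21 and 7.20 in untreated and 6.60 and 6.69 in treated parental cells, and 7.33 and 7.41 in untreated and 7.42 and 7.22 in treated resistant cells. It fell in parental cells by 0.56 (SE 0.11, limma, adjusted p = 0.00483), was not called in resistant cells (-0.05, adjusted p = 0.859), and the resistant minus parental difference was 0.51 ± 0.15 (adjusted p = 0.0434). That difference was lost without untreated parental replicate 1 (0.51, adjusted p = 0.0915), untreated parental replicate 2 (0.51, adjusted p = 0.0866), treated parental replicate 1 (0.47, adjusted p = 0.121), treated parental replicate 2 (0.56, adjusted p = 0.0741), untreated resistant replicate 1 (0.47, adjusted p = 0.12), untreated resistant replicate 2 (0.55, adjusted p = 0.0824) or treated resistant replicate 1 (0.41, adjusted p = 0.121), and without the detection filter (adjusted p = 0.0891). ILMN_1763386 gave 8.24 and 8.44 in untreated and 7.93 and 8.01 in treated parental cells, and 8.65 and 8.74 in untreated and 8.59 and 8.67 in treated resistant cells. Its parental fall was -0.37 ± 0.11 (limma, adjusted p = 0.0298), and its resistant minus parental difference of 0.30 was not called (adjusted p = 0.185). The fall was lost without untreated parental replicate 2 (-0.26, adjusted p = 0.154), treated parental replicate 1 (-0.33, adjusted p = 0.132) or treated parental replicate 2 (-0.41, adjusted p = 0.0707), and without the detection filter (adjusted p = 0.0607). The dim probe ILMN_2259495, tested in Z138 alone, was not called there, with 0.13 ± 0.21 for ONC201 in parental cells and -0.45 ± 0.21 in resistant cells (limma, adjusted p = 0.675 and 0.329).

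With tunicamycin and rapamycin, ILMN_2372413 gave 8.08 and 8.13 untreated, 7.81 and 7.95 at 12 h and 8.02 and 7.80 at 24 h of tunicamycin, and 7.59 and 7.56 with rapamycin. The rapamycin wells were the lowest, -0.52 ± 0.11 from untreated (limma, adjusted p = 0.0173), a call lost without untreated replicate 1 (-0.55, adjusted p = 0.0699), untreated replicate 2 (-0.50, adjusted p = 0.0772), rapamycin replicate 1 (-0.54, adjusted p = 0.0647) or rapamycin replicate 2 (-0.51, adjusted p = 0.0701). ILMN_1763386 gave 9.09 and 9.23 untreated, 9.17 and 9.05 at 12 h and 9.20 and 9.21 at 24 h of tunicamycin, and 8.94 and 8.82 with rapamycin. It was not called for rapamycin against untreated (-0.28, adjusted p = 0.0932), and the 24 h tunicamycin wells exceeded the rapamycin wells by 0.33 ± 0.10 (limma, adjusted p = 0.0459). This call was lost without tunicamycin replicate 1 (0.33, adjusted p = 0.135), tunicamycin replicate 2 (0.32, adjusted p = 0.143), rapamycin replicate 1 (0.39, adjusted p = 0.0753) or rapamycin replicate 2 (0.27, adjusted p = 0.184), and without the detection filter (adjusted p = 0.106). For ILMN_2372413 the same comparison gave 0.33 and was not called (adjusted p = 0.0556), but was under 5 of 9 other settings (adjusted p 0.0063 to 0.0464) and without tunicamycin replicate 2 (0.44, adjusted p = 0.0491).

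Members called were then counted in each comparison, out of the 4 tested, with each gene read at its brightest probe and beside the share of all tested probes called. In the ONC201 course none was called at 12 h, where 1.35% of all probes were called higher and 1.06% lower, and the unadjusted p was under 0.05 for 1 of the 4. At 24 h 2 were called higher (TNFRSF10B and TNFSF10) and 0 lower, beside 16.2% and 16.7% of all probes. At 36 h the same genes were called higher and 0 lower, beside 23% and 23.8%. TNFSF10 passed the detection filter only through 12 h and 24 h arrays. At 0 h and at 36 h it was detected on 0 of 3 arrays, so its calls lend these counts no support. From 12 h to 24 h 1 member was higher, TNFRSF10B, beside 8.12% higher and 8.32% lower over all probes, and from 24 h to 36 h it was again the only call, beside 5.74% and 6.17%. The median difference of the members at 36 h was 0.07, beside -0.01 for all probes, and it includes TNFSF10, undetected in both groups.

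In parental Z138 2 members were called higher with ONC201 (TNFRSF10B and FAS) and 2 lower (TNFRSF10A and BID), beside 17.8% of all probes higher and 18.5% lower. FAS was among the genes tested only through the group where it was high, so these counts support nothing about the members. In resistant Z138 none was called, beside 0.0289% higher and 0.0578% lower, and the unadjusted p was under 0.05 for 0 of the 4. For the difference between the effects 2 were lower in resistant cells (TNFRSF10B and FAS) and 0 higher, beside 11.3% of probes higher and 11.8% lower. Between untreated resistant and parental cells none was called, beside 0.619% and 1.09%, with an unadjusted p under 0.05 for 1 of the 4. The median difference of the members in parental cells was 0.20, beside 0.00 for all probes. That median includes FAS, so it supports nothing about the members either.

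In the third experiment TNFRSF10B was the only member called higher at 12 h of tunicamycin, beside 9.49% of probes higher and 9.47% lower, and at 24 h, beside 12.5% and 12.8%. With rapamycin none was called, beside 9.46% higher and 10% lower, with an unadjusted p under 0.05 for 2 of the 4. From 12 h to 24 h of tunicamycin none was called, beside 1.19% and 0.767%, and the unadjusted p was under 0.05 for 0. For tunicamycin against rapamycin 2 were higher with tunicamycin (TNFRSF10B and BID), beside 14.6% of probes higher and 15.4% lower. None of 4 was called for the ONC201 response minus the tunicamycin response, beside 12% and 11.4%, or of 3 for the JeKo-1 response minus the parental Z138 response, beside 11.4% and 10.7%, with an unadjusted p under 0.05 for 2 and 0 members respectively. Tests were two-sided, and counts out of 4 or fewer members show nothing particular to these genes beside such shares.

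**Figure D5:**
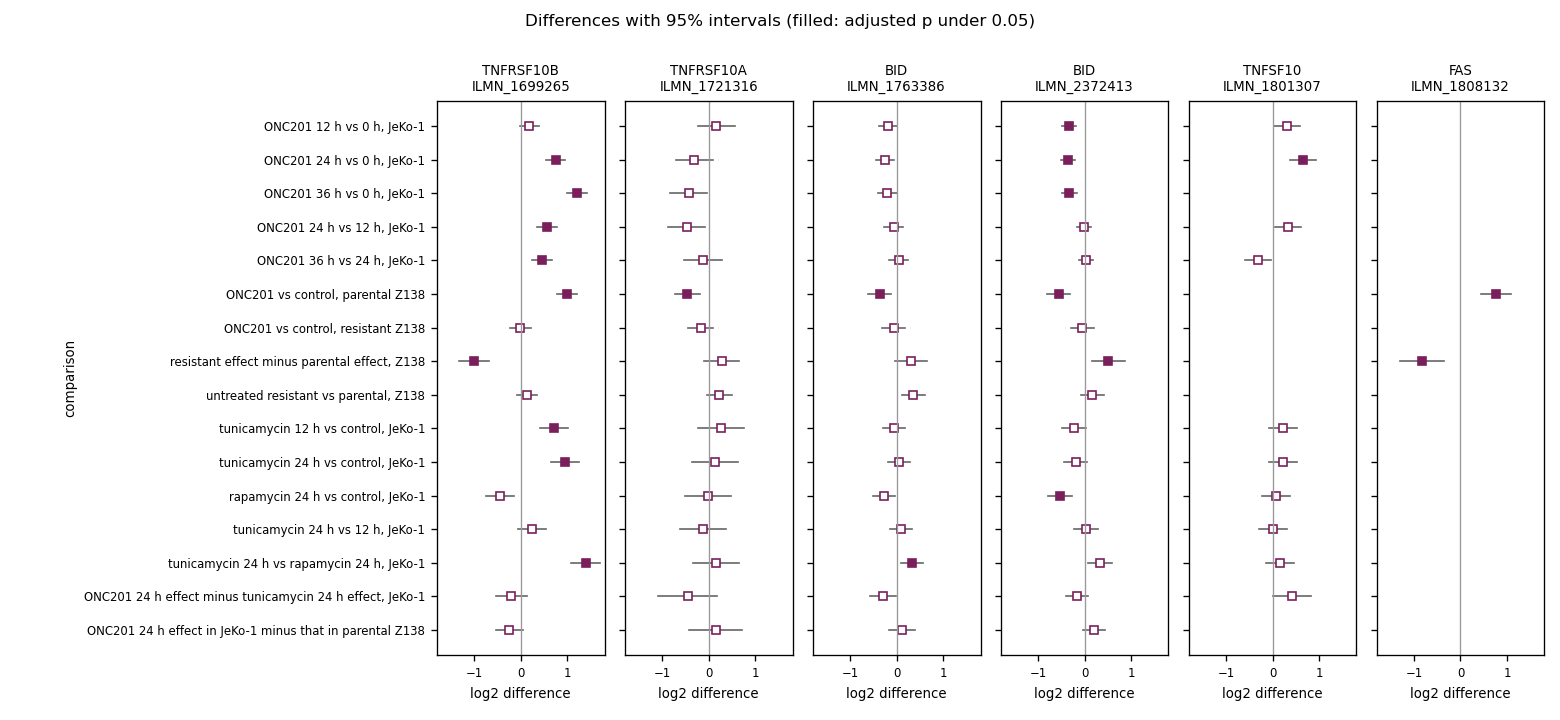
Differences (log2, with 95% intervals) of the tested member probes in the 16 comparisons, with filled points where the adjusted p was under 0.05. Comparisons with both groups undetected and the dim BID probe ILMN_2259495 are left out. TNFRSF10B reaches 1.21 at 36 h of ONC201 and 0.99 in parental Z138 and is at -0.01 in resistant Z138. TNFRSF10A and both BID probes shown lie below 0 in parental Z138.

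The other genes of the pathway were followed in lists by role. Of 9 ligands, decoys and other death receptors with a probe, few were detected, and FASLG and TNF were detected on 0 of 28 arrays. In parental Z138 1 of 4 tested was called with ONC201: TNFRSF1A, the main TNF receptor, rose by 1.72 ± 0.12 (limma, adjusted p = 5.61e-05), from 5.77 and 5.84 to 7.50 and 7.56. In the ONC201 course 0 of 2 were called at 36 h, and with tunicamycin for 24 h 1 of 3, LTA (lymphotoxin alpha), which fell by 0.56 (SE 0.11, adjusted p = 0.0104). Median differences of the list were -0.14 at 36 h, -0.10 in parental Z138 and -0.04 with tunicamycin.

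Of 8 adaptors and complex regulators tested, 2 rose and 3 fell at 36 h of ONC201 in JeKo-1, 3 rose and 2 fell in parental Z138, and 4 rose and 2 fell after 24 h of tunicamycin. Over all probes 23% rose and 23.8% fell in the first of these comparisons, 17.8% and 18.5% in parental Z138, and 12.5% and 12.8% with tunicamycin, shares that also stand behind the counts of the other lists. PEA15, a death effector domain protein that can hold back CASP8 recruitment, rose by 1.09 ± 0.10 in parental Z138 (limma, adjusted p = 0.000169) and by 0.64 ± 0.12 with tunicamycin (adjusted p = 0.0072). FAIM, an inhibitor of FAS-induced death, fell by 0.62 (SE 0.10) at 36 h and by 0.88 (SE 0.11) in parental Z138. DEDD2, another death effector domain protein, rose by 0.91 ± 0.11 both with tunicamycin for 24 h and with rapamycin. With rapamycin it was the only one of the 8 called, beside 9.46% of all probes higher and 10% lower. Medians were -0.15 at 36 h, 0.20 in parental Z138 and 0.18 with tunicamycin.

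Of 12 downstream caspases and mitochondrial genes, 2 rose and 2 fell at 36 h of ONC201, 1 rose and 3 fell in parental Z138, and 0 were called with tunicamycin for 24 h. With rapamycin 2 rose, beside 9.46% of all probes higher and 10% lower. CYCS, which encodes cytochrome c, fell by 0.93 (SE 0.09, limma, adjusted p = 7.91e-06) at 36 h. BIRC5, which encodes survivin, fell by 0.78 (SE 0.10) at 36 h and by 0.84 (SE 0.14) in parental Z138, and rose by 0.37 ± 0.09 with rapamycin (adjusted p = 0.0279). BAX, the pore-forming partner of cleaved BID, fell by 0.58 (SE 0.18) in parental Z138 (adjusted p = 0.0367). In resistant Z138 with ONC201 no gene of these 3 lists was called, beside 0.0289% of all probes higher and 0.0578% lower.

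Genes known as p53 targets were followed because TNFRSF10B and FAS belong among them. CDKN1A, the best known of them, was detected on 0 of 28 arrays. At 36 h of ONC201 4 of 5 tested rose, in parental Z138 3 of 8 rose and 1 fell, and with tunicamycin for 24 h 2 of 6 rose and 1 fell. Over all probes 23%, 17.8% and 12.5% were called higher and 23.8%, 18.5% and 12.8% lower. GDF15 counts as a riser in each. In the course it was detected only at 36 h, in Z138 only in treated parental wells, and in the third experiment only with tunicamycin. It passed each filter only through groups where it was high, so it lends these counts no support. GDF15, a secreted stress cytokine, was undetected without treatment and rose at least 1.93-fold at 36 h and at least 3.77-fold in parental Z138, and SESN1, a sestrin, rose by 0.66 ± 0.16 and 0.83 ± 0.11. TP53INP1 rose by 1.66 ± 0.17 in parental Z138 (limma, adjusted p = 0.00026). In the same comparison PHLDA3 fell by 0.56 (SE 0.14, limma, adjusted p = 0.0145). MDM2 was not called there, with -0.03 ± 0.15 (limma, adjusted p = 0.88). List medians were 0.42 at 36 h, 0.17 in parental Z138 and 0.17 with tunicamycin.

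On the arrays 29.7% to 35.2% of probes were detected. Median raw signals were 47.5 to 51.3 on the 8 arrays of the tunicamycin and rapamycin experiment and 60.9 to 68.7 on the other 20, without overlap, so that experiment's chip stood apart before normalisation. The B cell markers MS4A1, CD79A and CD79B and the mantle cell lymphoma marker SOX11 were detected on all 28, CCND1 on 8 of 8 Z138 and 0 of 20 JeKo-1 arrays, CD3D, CD3E, CD7, LYZ, EPCAM and KRT19 on none, CD2 on 4, CD14 on 7, and COL1A1 on all 8 Z138 arrays. Beside the rise of TNFRSF10B over the course, the summed signal of the 3 B cell markers was 18096 to 20491 at 0 h and 11176 to 11701 at 36 h, where all 3 fell, and its part in the members' results was not tested.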

How the data were processed

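Values came from the authors' deposited table of uncorrected probe intensity, which also holds a detection p-value per probe and array and was exported from GenomeStudio per the submitters' processing notes. The authors' normalized intensity values for 38220 probes, whose method is not given in the sources used here, served as an alternative. Per the labels, each of the 28 arrays is 1 well, and 2 or 3 arrays per group limit the precision.

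The deposited intensity values were background-corrected against 770 negative controls inferred from the detection p-values, quantile-normalized and put on the log2 scale with an offset of 16 (neqc, limma 3.58.1, R 4.3.3). Probes were tested with limma where detected at p under 0.01 on at least 3 arrays of the time course or 2 of another experiment. Each experiment had 1 model, with Benjamini-Hochberg adjustment over all probes tested. ONC201 minus tunicamycin was fitted over the 20 JeKo-1 arrays and JeKo-1 minus parental Z138 over all 28 arrays. For these a probe had to pass the filter in each experiment fitted. A gene was read at the probe with the highest mean. Symbols came from the platform annotation, updated by gene identifier for 26970 of 27004 probes with 1 symbol; 4 probes had several and 20223 none. Named were all members, the 3 genes of a list with the largest called difference in a comparison, DDIT3, ATF4 and TRIB3 beside TNFRSF10B, and the 3 genes closest in pattern to a member whose group means ranged over more than 1 log2 unit. PHLDA3, MDM2 and list genes detected on no array were named after their values were seen. The test was checked on simulated data. Alternatives were other background corrections, offsets, filters, normalizations and fits, and leaving out each array. The members and lists were chosen with earlier results of these data known.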

Additional observations from a re-analysis of the deposited data

Results flagged for a closer look

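Differences between the ONC201 effects in resistant and parental Z138 passed limma's test of the difference itself (resistant minus parental, log2): -1.001 for TNFRSF10B, -0.82 for FAS and 0.51 for the BID probe ILMN_2372413. In each, ONC201 changed the signal in parental cells and no change was called in resistant cells. FAS was detected in the treated parental wells only and was tested only through them, so its difference was in part built into the filter, and it was not called without the filter (adjusted p = 0.0594). The FAS and BID differences did not hold in most of the fits that left out 1 array. No array of a member was tested for standing apart from its group, since groups held 2 or 3 arrays.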

How the results depend on the processing

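Besides leaving out arrays, 9 other settings gave 721 values for member probes, of which 684 kept their direction and their side of the threshold, 22 passed it newly, 14 no longer passed it and 1 reversed. That one was TNFSF10 at 36 h against 0 h of ONC201, -0.00104 with the authors' normalized values. Of 460 values without 1 array, 418 kept both, 36 lost their call and 6 gained one. Members called at 36 h of ONC201 numbered 1 in place of 2 without background correction, with an offset of 50, with the authors' normalized values, without the detection filter and with detection required on every array of a group, and 4 in the fit over 28 arrays. At 24 h 1 in place of 2 was called with the last filter, and 3 without background correction, with an offset of 50, with 1 probe per gene, over 28 arrays and with the replicate block. From 12 h to 24 h 2 in place of 1 were called in the fit over 28 arrays. The difference between the Z138 effects gave 1 in place of 2 with the authors' values and without the filter. Tunicamycin for 24 h gave 2 in place of 1 with the authors' values, and against rapamycin 1 in place of 2 without the filter. Rapamycin gave 1 in place of 0 without background correction, with an offset of 50, with the stricter filter, with 1 probe per gene and over 28 arrays. JeKo-1 minus parental Z138 gave 2 in place of 0 without the filter. The filter and the tests per gene change how many features are adjusted over, and the cause was not tested for the others.

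Leaving out 1 array in turn, members called ranged from 2 to 3 at 24 h of ONC201, 1 to 3 at 36 h, 1 to 2 from 12 h to 24 h, 2 to 4 in parental Z138, 1 to 2 for the difference between the Z138 effects, 0 to 1 at 12 h of tunicamycin, and 1 to 1 (in place of 2) for tunicamycin against rapamycin. They were 0 to 0 at 12 h of ONC201, in resistant Z138, between untreated Z138 cells, with rapamycin, from 12 h to 24 h of tunicamycin and for both comparisons across experiments, and 1 to 1 from 24 h to 36 h of ONC201 and at 24 h of tunicamycin. All probes called moved by more than 1.5 times for every comparison except JeKo-1 minus parental Z138, over both kinds of alternative: 374 became 175 to 729 at 12 h of ONC201, 5112 became 3383 to 5706 at 24 h, 7270 became 4504 to 7688 at 36 h, 2554 became 1608 to 3089 from 12 h to 24 h, 1850 became 1131 to 2363 from 24 h to 36 h, 6281 became 4070 to 6835 in parental Z138, 15 became 0 to 784 in resistant Z138, 4004 became 2393 to 4795 for their difference and 296 became 76 to 733 between untreated Z138 cells. In the third experiment 3261 became 1475 to 4396 at 12 h and 4364 became 2587 to 5331 at 24 h of tunicamycin, 3349 became 1303 to 4403 with rapamycin, 336 became 19 to 1047 from 12 h to 24 h and 5174 became 3064 to 6069 for tunicamycin against rapamycin, and 3454 became 2286 to 3630 for ONC201 minus tunicamycin.

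Whether replicate numbers pair the wells was not settled by the arrays, and the main fits used no pairing. Same-numbered arrays correlated at -0.19 to 0.10 in the time course, -0.07 to 0.08 in Z138 and -0.04 to 0.03 in the third experiment. In these experiments 2 of 12, 6 of 8 and 0 of 8 arrays correlated best with their own number. With the replicate block 2 members in place of 1 were called from 12 h to 24 h of ONC201 and 1 in place of 2 for tunicamycin against rapamycin. The block made TNFRSF10A a call at 24 h (adjusted p = 0.0169), at 36 h (0.00185) and from 12 h to 24 h (0.0053) of ONC201. It ended the calls of TNFSF10 at 36 h (0.0662), of the BID probe ILMN_2372413 at 12 h (0.0551) and for the difference between the Z138 effects (0.0594), and of ILMN_1763386 for tunicamycin against rapamycin (0.0703). Signal near background limits TNFSF10, FAS, CASP8 and CASP10.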

Other observations

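Of genes known to be induced by NF-kB, which TNF receptors can activate, 5 of 5 tested were lower at 24 h of tunicamycin in JeKo-1. Their median difference was -1.07, and 12.8% of all probes were called lower. CD83, a B cell activation antigen, differed by -2.65 ± 0.13, and NFKBIA, the inhibitor of NF-kB, by -1.44 ± 0.09 (limma, adjusted p = 2.69e-05 and 7.95e-05). With ONC201 the list was split, with 2 of 5 higher and 2 lower at 36 h in JeKo-1 and 3 higher and 1 lower in parental Z138. Over all probes 23% were higher and 23.8% lower at 36 h, and 17.8% and 18.5% in parental Z138. CD83 was lower in both, by -1.28 ± 0.08 and -1.29 ± 0.09, while RELB, an NF-kB subunit, was higher by 0.66 ± 0.08 and 0.55 ± 0.11. With rapamycin 0 of 5 were called, beside 9.46% of probes higher and 10% lower.

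Of 6 interferon response genes tested in JeKo-1, 2 rose and 1 fell at 36 h of ONC201 and also with 24 h of tunicamycin. Over all probes 23% rose and 23.8% fell at 36 h, and 12.5% and 12.8% with tunicamycin. IFIT2, 1 of the 2 risers in each, was detected on 3 of 3 arrays at 36 h, 1 of 3 at 24 h and 0 of 3 earlier. In the third experiment it was detected only at 24 h of tunicamycin, on 2 of 2 arrays. It was tested only through the groups where it was high. IRF1, an interferon-induced transcription factor, rose by 1.00 ± 0.10 with ONC201 and 0.94 ± 0.10 with tunicamycin (limma, adjusted p = 1.09e-05 and 0.0006), and MX1, an antiviral GTPase, was lower by -0.46 ± 0.08 and -0.44 ± 0.09. The list medians were -0.13 and 0.04.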
